A study of Mus musculus with 98 samples.

Results

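The data compared here came from 11 mice aged 10 months, 6 that had received a virus carrying Acss2 (upACSS2) and 5 that had received the vector virus. They are all the libraries of the 10-month experiment, chosen by their group labels, out of 98 in the series. All 11 were male C57BL6 mice given a PhP.eB virus by retro-orbital injection at 1.2e11 viral genomes for 2 weeks, and dorsal hippocampus was taken 30 min after the acquisition session of fear conditioning. Vector mice therefore also carried a virus and had also been conditioned. The promoter and the cell types that express the virus are not given in the sources used here, and the labels name no uninfected or unconditioned mice of this age, so neither effect can be separated in these data. No label says whether each library is a separate dissection day or litter, and p-values measure the spread between these 11 libraries.

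ACSS2 is an enzyme of the cytosol and nucleus that joins acetate to coenzyme A. The acetyl-CoA it makes can be used for lipid synthesis and, in the nucleus, by histone acetyltransferases. In hippocampal neurons, a learning session induces transcription factors such as Fos, Egr1 and Nr4a1, and effectors such as Arc and Bdnf. Histone acetylation accompanies this response. The tissue was therefore sampled at a time when such transcripts can be measured in both groups.

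Total counts per mouse ran from 5075099 to 10839489, and 13629 of 55367 listed genes were abundant enough to test. Hippocampal markers were present in all mice, with Prox1, a dentate granule cell factor, at 84.1 to 200.4 CPM (counts scaled to library size). Some libraries stood apart. The transcript CT010467.1 took 6.94% of the counts in upACSS2 mouse 6 and 0.453% to 1.07% elsewhere. Ttr, the leading transcript of the choroid plexus, was at 5113 CPM in upACSS2 mouse 1 and 4229 CPM in vector mouse 1, against 28.5 to 314.7 CPM in the other mice, and this axis held 32.6% of the variance over 2000 genes. A list of 11 thalamic neuron markers averaged 5.42 log2 CPM in vector mouse 2 and 2.97 to 4.02 in the rest. The CA1 pyramidal list was lowest in vector mouse 2 (5.97 log2 CPM) and highest in vector mouse 5 (7.23), with 6.22 to 6.94 elsewhere. The CA2 and CA3 list was lowest in vector mouse 5 (3.62, against 4.08 to 4.99). In bulk tissue, fewer cells of a type and less RNA per cell cannot be told apart.

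**Figure D1:**
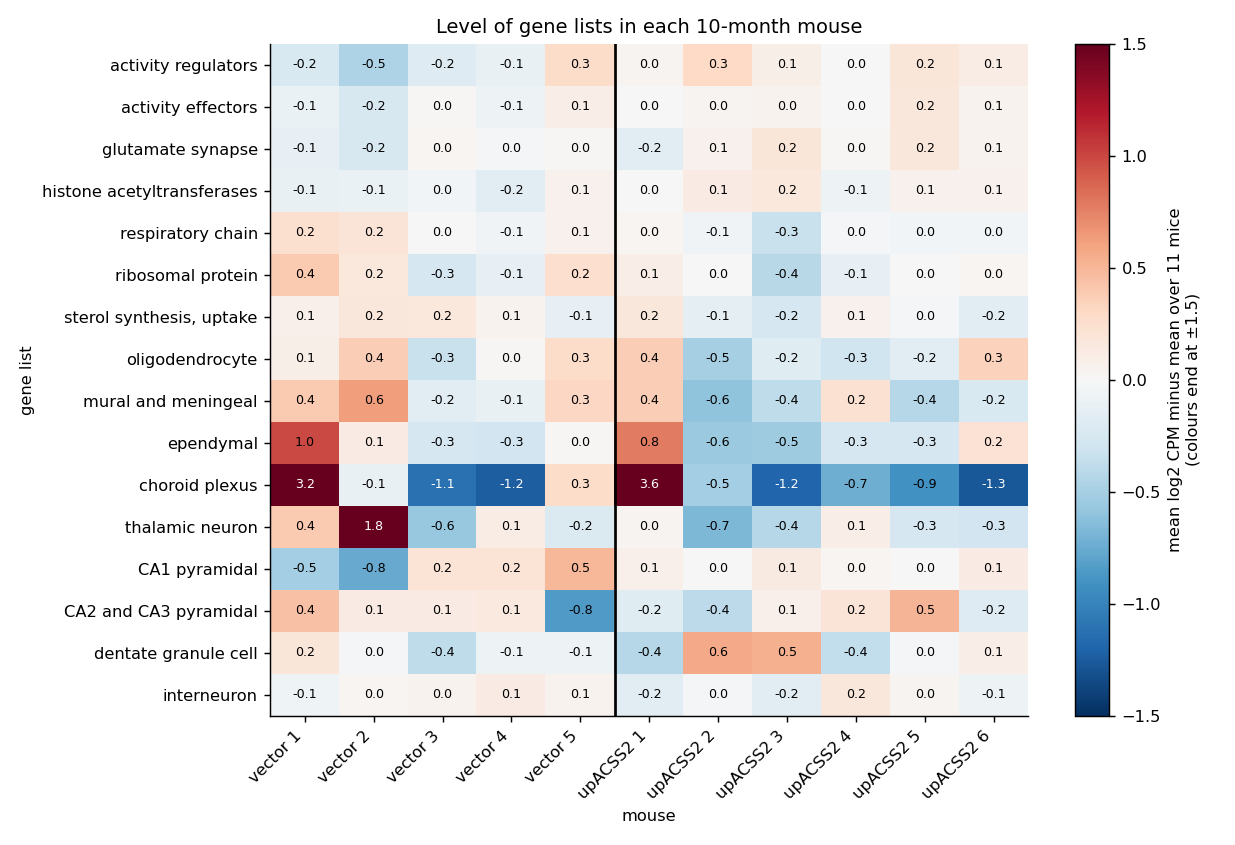
Level of 16 gene lists (rows) in each of the 11 mice (columns), as mean log2 CPM minus the mean over all 11 mice; colours end at ±1.5. Choroid plexus genes were high in mouse 1 of each group, thalamic genes in vector mouse 2, and activity regulators were lowest in vector mouse 2 and high in vector mouse 5.

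The virus carries Acss2, whose endogenous copy lies on chromosome 2 of GRCm38 (155517948 to 155585724, plus strand), so its level checks the labels. It was at 42.3, 48.8, 47.4, 42.6 and 43.0 CPM in vector mice 1 to 5, and in the 6 upACSS2 mice it ran from 49.9 to 59.3 CPM with a median of 57.5. The lowest upACSS2 mouse lay just above the highest vector mouse, so the groups did not overlap. The means were 55.8 ± 4.199 CPM (SD, n = 6) and 44.8 ± 3.06 CPM (SD, n = 5), a level 24.4% higher with upACSS2 (two-sided exact permutation test, p = 0.00433 over 462 splits, which allow 0.00216 at the lowest). On the log2 scale the difference was 0.31 ± 0.073 (SE), with an adjusted p of 0.518 over all genes tested (edgeR). Acss2 ranked 12 of 13629 genes by p and 449 by fold change. The counts are per gene symbol and do not separate viral from endogenous Acss2 transcripts.

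Within the upACSS2 group, the Acss2 level was set against 4 activity genes over 6 mice. Pearson's r was -0.35 for Fos, -0.00088 for Arc, 0.36 for Npas4 and 0.67 for Egr1, and Spearman's rho was -0.31, -0.086, 0.26 and 0.66. No relation passed the exact permutation test (Pearson p 0.471, 0.997, 0.531 and 0.139, adjusted 0.708, 0.997, 0.708 and 0.556 over the 4; Spearman p 0.564, 0.919, 0.658 and 0.175, adjusted 0.877, 0.919, 0.877 and 0.7). Without mice 2 and 4, the 2 farthest from the median of Acss2, r became 0.56, 0.74, 0.43 and 0.53 over 4 mice, so the sign for Fos and Arc rests on those 2 mice. The upACSS2 values span less than 10 CPM, which limits what 6 mice can show.

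Across all genes, no gene separated the groups in the edgeR quasi-likelihood test: 0 of 13629 (0%) passed an adjusted p of 0.05, and the lowest adjusted p was 0.404. At an unadjusted p under 0.05, 688 genes were higher with upACSS2 (5.05%) and 516 lower (3.79%). DESeq2 called 3 genes, and limma-voom called 0. Groups without overlap were seen for 55 genes higher (0.404%) and 56 lower (0.411%) with upACSS2. Over all genes tested 48.6% had a higher mean with upACSS2, and the median log2 fold change was -0.0058.

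The 3 genes past the DESeq2 threshold were Galnt6, Ppp1r16b and Srp19. Galnt6, an enzyme that starts mucin-type O-glycosylation (GRCm38 chromosome 15, 100691813 to 100729376, minus strand), was at 6.68, 8.61, 6.74, 6.56 and 6.75 CPM in vector mice 1 to 5 and at 10.3 to 17.9 CPM, median 12.7, in upACSS2 mice. The log2 fold change was 0.92 ± 0.16 (SE), with an adjusted p of 0.404 in edgeR and 0.00455 in DESeq2. All 6 upACSS2 mice lay above all vector mice, and vector mouse 2 lay apart from the other 4. Ppp1r16b, a regulatory subunit of protein phosphatase 1 (chromosome 2, 158665398 to 158766334, plus strand), was at 224.8, 206.7, 189.9, 194.9 and 230.8 CPM with vector and at 249 to 284.3 CPM, median 261.1, with upACSS2. Its log2 fold change was 0.34 ± 0.069 (SE; adjusted p 0.518 in edgeR, 0.00455 in DESeq2), the smaller fold of these 3 genes on the most reads. Srp19, a subunit of the signal recognition particle, was at 34.4, 36.1, 35.7, 35.3 and 38.9 CPM with vector and at 22.1 to 28.5 CPM, median 27.2, with upACSS2 (log2 fold change -0.44 ± 0.079, SE; adjusted p 0.404 in edgeR, 0.0299 in DESeq2). For Srp19 all 6 upACSS2 mice lay below all 5 vector mice.

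The other genes at the ends of the fold change range were low to moderate in level, and none passed the edgeR threshold (adjusted p 0.518 for each). Among those higher with upACSS2 and not overlapping were Klhl11, an adaptor of cullin ubiquitin ligases (37.0 ± 4.58 CPM with vector, SD, n = 5, and 52.8 ± 7.13 CPM with upACSS2, SD, n = 6; log2 fold change 0.50), and Celsr3, a seven-pass cadherin of axon guidance (35.3 ± 3.55 and 48.2 ± 7.05 CPM; 0.45). Zbtb40, a zinc finger protein, had a log2 fold change of 0.52. Hmox1, the heme-degrading heme oxygenase 1, had 0.59, and Tnfrsf1b, a receptor for tumour necrosis factor, 0.62. Fyb, an adaptor of immune cells, had 0.59 and Nsun7 0.46. Pcdhgb7 had 0.58, but it shares its constant exons with the other gamma protocadherins, so its count is uncertain.

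Among those lower with upACSS2 were Rasgef1b, an exchange factor for Ras-like GTPases (7.85 ± 1.04 CPM with vector, SD, n = 5, and 4.51 ± 0.874 CPM with upACSS2, SD, n = 6; log2 fold change -0.79), and Zfp941, a zinc finger protein (16.6 ± 4.14 and 10.8 ± 1.95 CPM; -0.61). Klf11, a Kruppel-like transcription factor, had -0.78, Kazald1 -0.84, Adamtsl2, a secreted matrix glycoprotein, -0.69, and Zswim7 -0.57. Reep6, a membrane protein of the endoplasmic reticulum, had -0.50 and Adat1, which deaminates adenosine in tRNA, -0.48. Mcts2 had -0.45, and as a retrocopy of another gene its reads may be split. The 20 genes at the ends, Galnt6 and Srp19 included, were picked for their size and separation, so their values describe the ends of the range.

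The rapid transcription factors that learning induces were the list with the highest median. Promoters of 5 of these genes are shown, 4 with a higher mean and Npas4, whose means hardly differed, so that their common letters can be seen. Each runs from 250 bases before to 50 after the RefSeq start (GRCm38.p6), printed 5′ to 3′ on the gene's strand. Capitals mark TGACG on either strand, the core of the site bound by CREB, the cAMP-responsive factor of activity-induced genes. Fosb is at chr7:19309996-19310295 (minus), Egr4 at chr6:85513540-85513839 (minus), Fos at chr12:85473640-85473939 (plus), Nr4a1 at chr15:101266596-101266895 (plus) and Npas4 at chr19:4989922-4990221 (minus).
Fosb: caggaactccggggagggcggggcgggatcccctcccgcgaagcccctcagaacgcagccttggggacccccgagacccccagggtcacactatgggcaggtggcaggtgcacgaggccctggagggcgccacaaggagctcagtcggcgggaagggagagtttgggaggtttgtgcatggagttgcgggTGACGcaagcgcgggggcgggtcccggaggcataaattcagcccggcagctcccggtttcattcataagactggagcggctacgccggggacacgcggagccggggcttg
Egr4: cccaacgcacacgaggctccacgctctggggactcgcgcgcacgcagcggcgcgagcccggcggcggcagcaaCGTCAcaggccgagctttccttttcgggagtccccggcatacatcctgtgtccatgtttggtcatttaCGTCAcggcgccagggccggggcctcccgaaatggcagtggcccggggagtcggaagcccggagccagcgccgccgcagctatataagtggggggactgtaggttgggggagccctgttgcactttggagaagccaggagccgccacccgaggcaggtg
Fos: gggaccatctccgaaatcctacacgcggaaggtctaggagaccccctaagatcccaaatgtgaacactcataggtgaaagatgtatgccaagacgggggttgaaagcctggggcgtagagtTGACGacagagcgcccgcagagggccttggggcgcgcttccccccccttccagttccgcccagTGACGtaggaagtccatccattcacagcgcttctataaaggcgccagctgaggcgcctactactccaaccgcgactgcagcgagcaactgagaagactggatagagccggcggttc
Nr4a1: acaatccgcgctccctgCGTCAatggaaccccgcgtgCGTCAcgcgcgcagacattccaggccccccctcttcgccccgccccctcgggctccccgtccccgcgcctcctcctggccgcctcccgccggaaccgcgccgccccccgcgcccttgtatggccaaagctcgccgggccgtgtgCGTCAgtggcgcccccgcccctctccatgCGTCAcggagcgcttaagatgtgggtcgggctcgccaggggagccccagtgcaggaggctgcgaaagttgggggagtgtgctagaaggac
Npas4: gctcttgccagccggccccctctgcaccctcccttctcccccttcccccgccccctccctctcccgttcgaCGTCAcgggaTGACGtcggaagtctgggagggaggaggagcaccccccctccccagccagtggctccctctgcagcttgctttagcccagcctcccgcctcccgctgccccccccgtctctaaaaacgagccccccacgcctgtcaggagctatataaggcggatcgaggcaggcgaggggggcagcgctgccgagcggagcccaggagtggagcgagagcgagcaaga

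TGACG was found at least once in each of these 5 promoters, 4 times in Nr4a1 and 1 time in Fosb. Of 26 activity regulators, 22 had a promoter in the RefSeq table, and 18 of those 22 held TGACG in a listed promoter, against 23% of all 27025 genes. The full palindrome TGACGTCA, which contains TGACG, was in 2 of the 22 genes, against 2.03% of all genes, and the CArG box of serum response factor in 1 of the 22, against 1.81%. A match describes the letters of the window and shows no binding. Npas4, Fos and Egr4 each held TGACG 2 times, and the levels of the 2 groups of mice overlapped for each of them.

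Of the 26 activity regulators, 25 were tested (Maff was too low), and 23 of 25 had a higher mean with upACSS2, with a median log2 fold change of 0.28 against -0.0058 for all genes. None passed the adjusted threshold (lowest adjusted p 0.518, edgeR). An unadjusted p under 0.05 with a higher level was found for 10 of 25, against 5.05% of all genes, and with a lower level for 0 of 25, against 3.79%. No member was free of overlap between the groups, where 0.404% of all genes were so with a higher and 0.411% with a lower level. The list's mean level ran from 4.87 to 5.17 log2 CPM in upACSS2 mice (median 4.97) and was 4.64, 4.41, 4.68, 4.75 and 5.14 in vector mice 1 to 5. Vector mice 1 to 4 thus lay below all 6 upACSS2 mice, and vector mouse 5 lay above 5 of them.

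Egr4, a member of the early growth response factors, was at 38.0, 29.8, 46.5, 55.8 and 78.7 CPM in vector mice 1 to 5 and at 59.6 to 84.4 CPM, median 71.4, in upACSS2 mice (log2 fold change 0.53 ± 0.18, SE; unadjusted p 0.0107, adjusted 0.518, edgeR). Fosb, an AP-1 subunit, was at 12.1, 12.03, 13.4, 15.6 and 18.3 CPM with vector and at 16.2 to 25.8 CPM, median 18.8, with upACSS2 (0.45 ± 0.14, SE; unadjusted p 0.00566, adjusted 0.518, edgeR). Fosl2, another AP-1 subunit, was at 36.2, 39.9, 50.6, 49.2 and 63.6 CPM with vector and at 53.3 to 71.6 CPM, median 59.8, with upACSS2 (0.37 ± 0.13, SE). In all 3 genes vector mouse 5 was the highest vector mouse and lay inside the upACSS2 range.

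Egr1 was at 147.4, 120.1, 188.6, 177.3 and 360.8 CPM in vector mice 1 to 5 and at 202.8 to 291.6 CPM, median 229.9, in upACSS2 mice. The log2 fold change was 0.29 ± 0.21 (SE; adjusted p 0.679, edgeR), with a larger SD with vector (94.4 CPM, n = 5) than with upACSS2 (34.7 CPM, n = 6). Nr4a1, an orphan nuclear receptor, was at 89.8, 78.1, 109.3, 113.8 and 202.1 CPM with vector and at 123.3 to 165.1 CPM, median 149.1, with upACSS2 (0.34 ± 0.19, SE). In both genes vector mouse 5 was the highest of all 11 mice and the other 4 vector mice lay below every upACSS2 mouse.

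Junb, also an AP-1 subunit, was at 105.6, 73.2, 108.2, 113.6 and 165.1 CPM with vector and at 118.8 to 188 CPM, median 144.8, with upACSS2 (0.38 ± 0.16, SE). Fos was at 22.2, 28.2, 29.8, 26.6 and 43.4 CPM with vector and at 30.0 to 42.0 CPM, median 33.3, with upACSS2 (0.24 ± 0.15, SE; adjusted p 0.631, edgeR). Npas4, a neuron-specific factor induced by calcium entry, was at 13, 8.76, 12.5, 8.88 and 13.9 CPM with vector and at 9.38 to 16.6 CPM, median 10.9, with upACSS2 (0.053 ± 0.17, SE). Npas4 differed by less than its spread, and its sign changed when 1 mouse was left out.

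**Figure D2:**
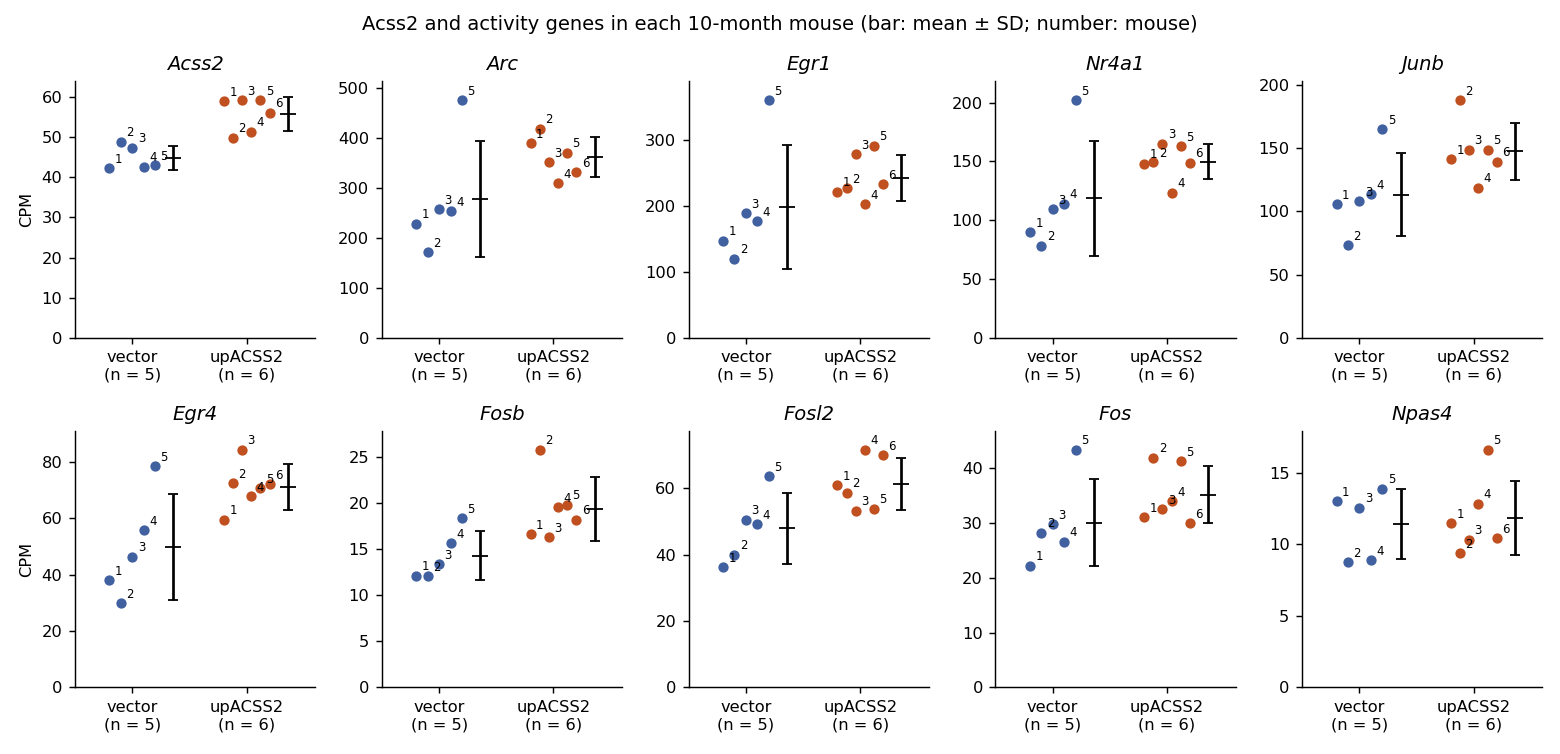
CPM (y axis, from 0) of Acss2 and 9 activity genes in each mouse of the vector (n = 5, blue) and upACSS2 (n = 6, orange) groups, with the mouse number beside each point and the mean ± SD as a bar. Acss2 does not overlap between groups; in Arc, Egr1 and Nr4a1 vector mouse 5 is the highest of all mice and the other 4 vector mice lie below every upACSS2 mouse.

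The activity counts depended on single mice, most on vector mice 1, 2 and 5. Without vector mouse 5, 14 of 26 regulators had an unadjusted p under 0.05 and a higher level (6.62% of all genes did), and 10 did not overlap (1.55% of all genes), namely Fos, Fosb, Fosl2, Junb, Egr1, Egr2, Egr4, Nr4a1, Nr4a2 and Tiparp. Vector mouse 5 was the highest vector mouse for these 10 genes. Their lack of overlap thus follows from which mouse was left out and is no separate evidence of a difference. Still no gene passed the adjusted threshold (lowest adjusted p of a regulator 0.225, edgeR). Without vector mouse 2, 3 of 26 regulators had an unadjusted p under 0.05 (3.53% of all genes), 0 were free of overlap (0.596% of all genes) and the median was 0.21. Without vector mouse 1, 4 regulators had such a p and a higher level (567 of 13554 genes did). Leaving out any other single mouse gave 6 to 10 regulators, where 455 to 915 of all genes met the same limit. Vector mouse 2 was the lowest of 11 mice for 13 of 25 regulators and 6 of 8 CA1 genes. Vector mouse 5 was the highest for 7 of 25 regulators and 5 of 8 CA1 genes. Vector mouse 1 lay below every upACSS2 mouse in both the CA1 list (6.22 log2 CPM) and the regulator list (4.64). The CA1 markers thus moved with the activity genes in vector mice 1, 2 and 5, but not in all mice. The highest mouse for 10 of 25 regulators was upACSS2 mouse 2, which was the highest for 0 of 8 CA1 genes. In vector mice 3 and 4 the CA1 list (6.94 log2 CPM in each) lay above every upACSS2 mouse. Their regulator list (4.68 and 4.75) lay below every upACSS2 mouse. Over the fits that each leave out 1 mouse, the log2 fold change ran from 0.15 to 0.61 for Egr1 and from 0.22 to 0.61 for Nr4a1, lowest without vector mouse 2 and highest without vector mouse 5. For Fos it ran from 0.14 without vector mouse 1 to 0.40 without vector mouse 5. With the thalamic list as a covariate, 3 of 25 regulators had an unadjusted p under 0.05 and a higher level (2.89% of all genes) and the median was 0.15. The part of dissection in the result was not tested further.

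Activity effectors showed a smaller difference. Of 30, 20 had a higher mean with upACSS2 (median log2 fold change 0.12), 5 with an unadjusted p under 0.05 (5.05% of all genes) and 0 of 30 lower at that level (3.79%). Arc, which regulates AMPA receptor endocytosis, was at 228.2, 171.3, 257.7, 253.1 and 476.1 CPM in vector mice 1 to 5 and at 309.8 to 418.3 CPM, median 361.2, in upACSS2 mice (0.39 ± 0.19, SE; adjusted p 0.571, edgeR). Vector mouse 5 lay above every upACSS2 mouse for Arc, and the other 4 vector mice lay below all of them. Trib1, a pseudokinase, was at 12.2, 15.9, 10.8, 14.9 and 20.2 CPM with vector and at 17.8 to 20.9 CPM, median 20.3, with upACSS2 (0.45 ± 0.14, SE). Dusp5 and Dusp6, phosphatases that inactivate ERK, had log2 fold changes of 0.49 ± 0.17 and 0.36 ± 0.15 (SE). Homer1, a postsynaptic scaffold with an activity-induced short form, had 0.30 ± 0.13 (SE), with its isoforms not separated in these counts. Bdnf, the neurotrophin, was at 73.8 ± 12.5 CPM with vector (SD, n = 5) and 75.2 ± 12.2 CPM with upACSS2 (SD, n = 6).

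Without vector mouse 5, 8 of 30 effectors had an unadjusted p under 0.05 and a higher level (6.62% of all genes did), and 3 did not overlap (Arc, Homer1 and Trib1; 1.55% of all genes). Vector mouse 5 was the highest vector mouse for these 3 genes too, so their lack of overlap follows from leaving it out. Without vector mouse 2, 2 of 30 had such a p (3.53% of all genes) and the median was 0.060. Over the fits that each leave out 1 mouse, the log2 fold change ran from 0.25 to 0.67 for Arc, from 0.23 to 0.47 for Dusp6 and from 0.19 to 0.44 for Homer1, in each case lowest without vector mouse 2 and highest without vector mouse 5. Glucocorticoid targets, which follow the stress hormone, had 11 of 16 higher (median 0.11). Sgk1, a kinase of that list, was at 76.8, 63.2, 54.5, 53.6 and 59.2 CPM with vector and at 72.2 to 94.5 CPM, median 85.4, with upACSS2 (0.44 ± 0.10, SE; adjusted p 0.518, edgeR). For Sgk1 vector mouse 1, not mouse 5, reached into the upACSS2 range. Per1, a clock gene that belongs to both the glucocorticoid and the activity regulator lists, had 0.29 ± 0.12 (SE).

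Enzymes around acetyl-CoA other than Acss2 showed little difference. Of 21 tested genes of acetyl-CoA supply, 8 were higher and 13 lower (median log2 fold change -0.056), and 1 had an unadjusted p under 0.05, Acot7, an acyl-CoA thioesterase (-0.22 ± 0.090, SE; adjusted p 0.544, edgeR), where 3.79% of all genes were lower at that level. Pdk1 and Pdk2, kinases that inhibit pyruvate dehydrogenase, had -0.12 and -0.13. Histone acetyltransferases, which use acetyl-CoA, were higher for 12 of 15 (median 0.14), 4 of them with an unadjusted p under 0.05, against 5.05% of all genes. Kat5, 1 of the 3 others, was lower at that level (-0.22 ± 0.078, SE; 3.79% of all genes). Ep300, a transcriptional coactivator of that list, was at 61.4, 55.7, 66.3, 56.5 and 83.7 CPM with vector and at 67.4 to 95.3 CPM, median 87.2, with upACSS2 (0.37 ± 0.11, SE; adjusted p 0.518, edgeR). Vector mouse 5 again lay inside the upACSS2 range. Kat6a had 0.26 ± 0.085 and Ncoa3 0.28 ± 0.098 (SE). Deacetylases and sirtuins split 9 higher and 9 lower (median 0.0048), with Hdac4 at 0.20, Hdac11 at -0.15 and the mitochondrial Sirt3 at -0.18.

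Lipid synthesis also uses acetyl-CoA. Sterol synthesis and uptake genes were lower for 17 of 22 (median -0.16), 2 with an unadjusted p under 0.05, against 3.79% of all genes: Insig1, which retains the sterol regulator SREBP in the endoplasmic reticulum (-0.26 ± 0.12, SE), and Nsdhl, an enzyme of cholesterol synthesis (-0.31 ± 0.14, SE). Stard4, a sterol carrier, had -0.32 ± 0.15 (SE). Fatty acid genes split 8 higher and 7 lower (median 0.022), with the elongase Elovl6 at 0.24 ± 0.083 (SE).

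Postsynaptic genes of the glutamate synapse were higher for 22 of 26 (median 0.12), 2 with an unadjusted p under 0.05 (5.05% of all genes). Shank3, a master scaffold of the postsynaptic density, was at 319.2, 339.3, 345.8, 315.7 and 346.3 CPM with vector and at 355.4 to 412.8 CPM, median 389.9, with upACSS2 (0.22 ± 0.064, SE; adjusted p 0.518, edgeR). It was the 1 member without overlap (0.404% of all genes). Shank2, a related scaffold, had 0.26 ± 0.089 and Homer2, which binds it, 0.27 ± 0.13 (SE). Vesicle and release genes split 10 higher and 13 lower (median -0.0090), with Bsn, a scaffold of the release site, at 0.34 ± 0.13 (SE).

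Respiratory chain genes of the nucleus were lower for 24 of 24 (median -0.14), 6 with an unadjusted p under 0.05, and ribosomal protein genes for 22 of 22 (median -0.16), 1 with such a p, against 3.79% of all genes. Cox7b, a subunit of complex IV, was at 129.2, 125.9, 102.3, 94.0 and 107 CPM with vector and at 71.7 to 111.7 CPM, median 90.0, with upACSS2 (-0.33 ± 0.12, SE). Ndufa1, of complex I, had -0.39 ± 0.15 and Uqcrq, of complex III, -0.27 ± 0.11 (SE). Rpl23, of the large ribosomal subunit, had -0.20 ± 0.12 (SE). RNAs of the mitochondrial genome were lower for 7 of 11 (median -0.053), and their share of all counts ran from 4.2% to 6.84%.

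These lists moved with gene length. In 4 equal groups of 13460 genes by summed exon length, the median log2 fold change was -0.092 in the shortest, -0.026, 0.016 and 0.075 in the longest, and 26.2% of the shortest against 71.7% of the longest had a higher mean with upACSS2. Across genes, Spearman's rho between length and log2 fold change was 0.375, a description over genes that share the same 11 libraries. The slope of log2 CPM per doubling of length was -0.071, -0.057, -0.0020, -0.017 and -0.0058 in vector mice 1 to 5 and ran from -0.020 to 0.089 in upACSS2 mice, with upACSS2 mouse 1 inside the vector range. Of the ribosomal genes 17 of 22 and of the respiratory chain genes 14 of 24 were in the shortest group, and of the glutamate synapse genes 17 of 26 and of the acetyltransferases 9 of 15 in the longest. With each mouse's slope as a covariate the medians became 0.096 for ribosomal, 0.016 for respiratory chain, -0.096 for glutamate synapse, -0.0033 for acetyltransferase and 0.017 for sterol genes. The slopes came from the same libraries, and apart from mouse 1 every upACSS2 slope lay above all vector slopes. The covariate thus carries much of the group difference, and fits with it cannot separate gene length from the virus.

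The activity regulators ran against this trend. Of 25, 9 were in the shortest group and 1 in the longest, and 8 of the 9 short ones had a higher mean with upACSS2 (median 0.26, where all genes of that group had -0.092). With the slope as a covariate their median was 0.10, with 1 of 25 higher at an unadjusted p under 0.05 (4.05% of all genes), and that of the effectors -0.00031. Egr1 was then at -0.11 on the log2 scale. The part of gene length in the list differences was not tested beyond that covariate, which cannot separate it from the virus.

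**Figure D3:**
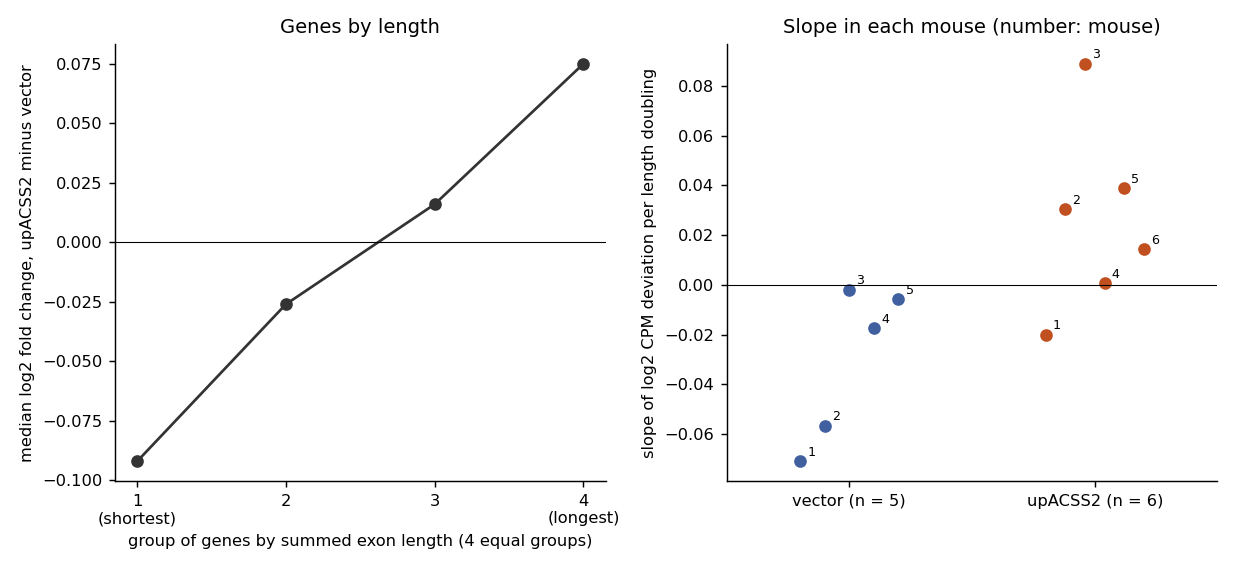
Left, median log2 fold change (upACSS2 minus vector) in 4 equal groups of genes by summed exon length, from -0.092 in the shortest to 0.075 in the longest. Right, slope of log2 CPM deviation per length doubling in each mouse of the vector (n = 5) and upACSS2 (n = 6) groups, where upACSS2 mouse 1 lies inside the vector range.

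Among cell type markers, no list separated the groups. Thalamic markers had a lower mean with upACSS2 for 11 of 11 (median -0.44), 4 with an unadjusted p under 0.05 (3.79% of all genes). Tcf7l2, a factor of thalamic neurons, was at 11.1, 83.4, 3.31, 9.07 and 6.36 CPM with vector and at 2.38 to 6.58 CPM, median 3.92, with upACSS2, so vector mouse 2 set its mean. Its log2 fold change was -0.77 without that mouse and ran down to -2.64 without vector mouse 3. Mural and meningeal markers were lower for 11 of 13 (median -0.31; 3 with such a p) and mature oligodendrocyte markers for 15 of 16 (median -0.13), with Opalin, a myelin protein, at -0.47 ± 0.20 and Myrf, the myelin regulator, at 0.23 ± 0.15 (SE). Mbp, the main myelin protein, ranged from 1585 to 3852 CPM with upACSS2 and from 2063 to 3779 CPM with vector. Microglial markers were higher for 9 of 15 (median 0.019). Csf1r, the receptor microglia need to survive, was at 80.7, 91.3, 89.3, 91.3 and 92.2 CPM with vector and at 95.2 to 108.2 CPM, median 102.7, with upACSS2 (0.20 ± 0.063, SE; adjusted p 0.518, edgeR). Csf1r and Sall1, the microglial identity factor (0.20 ± 0.082, SE), were the 2 members without overlap, against 0.404% of all genes. For Sall1 the lowest upACSS2 and the highest vector mouse were both at 18.9 CPM, so the groups met to within rounding.

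Astrocyte markers split 6 higher and 9 lower (median -0.010), with Slc1a2, the main glutamate transporter, at 0.17 ± 0.070 (SE) and Gfap between 516.3 and 1023 CPM over all mice. Interneuron markers split 8 higher and 7 lower (median 0.0066), with Erbb4 at 0.28 ± 0.088 and Pvalb at -0.35 ± 0.14 (SE). Dentate markers were higher for 6 of 10 (median 0.13), led by Pdzd2, a PDZ protein (36.9, 38.0, 28.0, 32.6 and 33.8 CPM with vector; 33.9 to 77.1 CPM, median 53.8, with upACSS2). Nnat, of the CA2 and CA3 list, had -0.71 ± 0.21 (SE), and that list split 6 and 6. Interferon-induced genes were lower for 10 of 15 (median -0.044). Heat shock genes were lower for 8 of 13 (median -0.020), with Dnajb1 at 0.23 and Hsp90aa1 at -0.21. The remaining lists were choroid plexus (2 of 8 higher, median -0.087), ependymal (1 of 6, -0.30), endothelial (7 of 12, 0.12), oligodendrocyte precursor (5 of 10, -0.020), red cell (2 of 4, 0.043), CA1 (5 of 8, 0.014) and cortex and subiculum (8 of 11, 0.10).

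**Figure D4:**
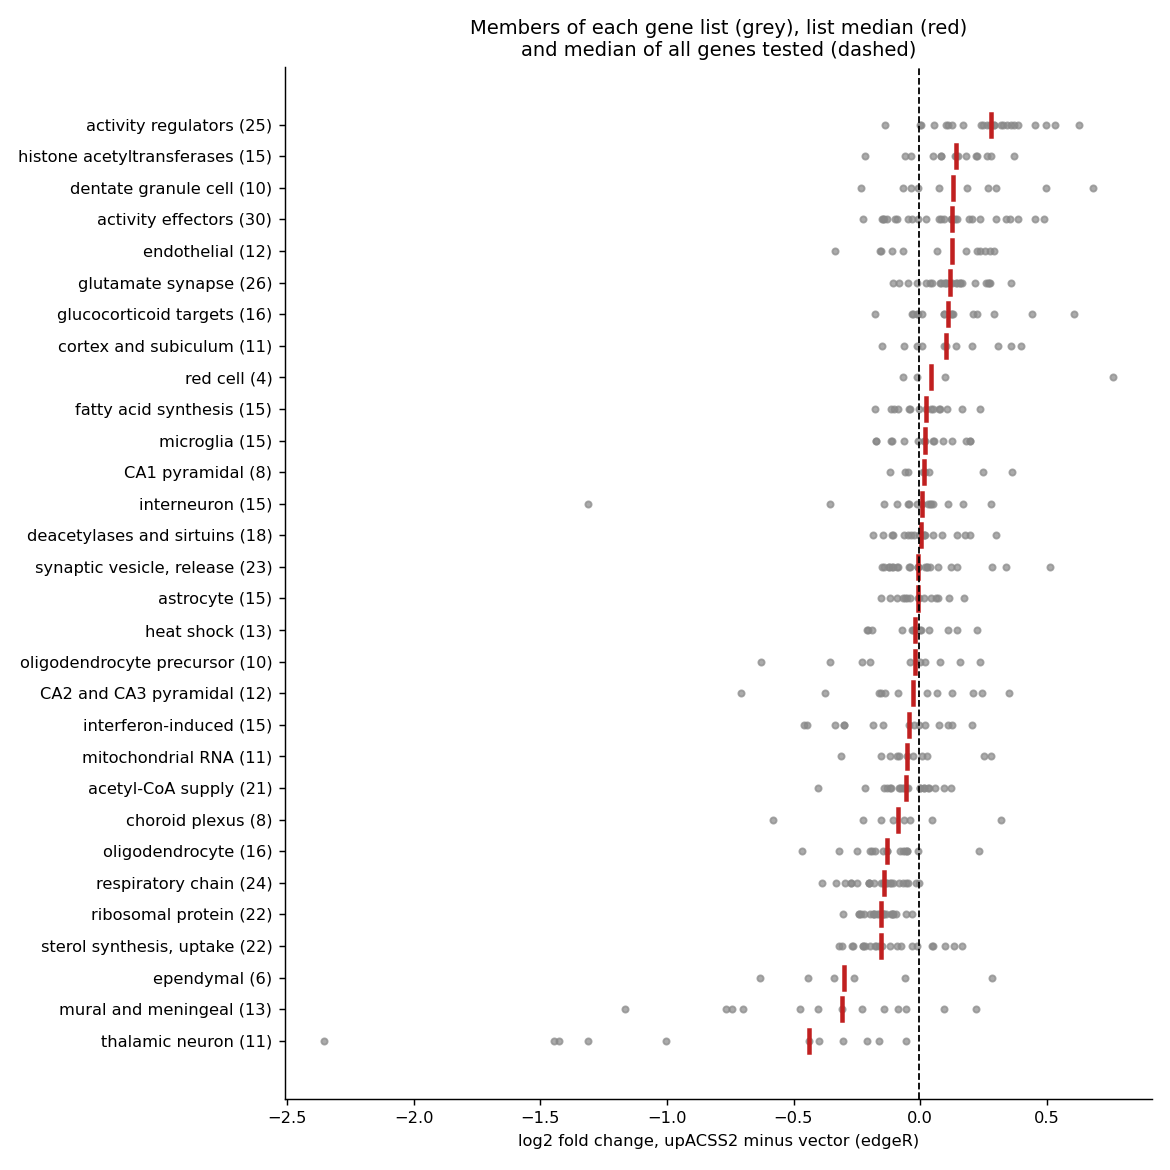
Log2 fold change (x axis, upACSS2 minus vector) of each tested member (grey) of 30 gene lists, number tested in brackets, with the list median in red and the median of all 13629 genes as a dashed line. Activity regulators have the highest median (0.28) and thalamic markers the lowest (-0.44).

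The difference between upACSS2 and vector was set beside that in 2 other mouse experiments of the series. Both differ from the 10-month mice in age, dose, time, region and behaviour, and the PS19 mice also in genotype. The serotype and route of the virus in those experiments are not given here. Aged male mice (12 per group, 22 to 23 months old) had 1.5e11 viral genomes for 2 months and whole hippocampus taken 30 min after remote recall. PS19 mice (5 per group, 3.5 months old), which carry mutant human tau, had 1.5e10 viral genomes for 1 month and tissue taken 30 min after recall. Their upACSS2 libraries are labelled whole and their vector libraries dorsal hippocampus, so region and virus cannot be told apart there. The treatment field of the labels contradicts the title for 6 of these 10 libraries: all 5 titled upACSS2 carry the vector treatment there, and 1 titled vector carries that of upACSS2. Groups follow the titles, so the direction of every PS19 difference given here rests on them. The virus effect differed from that in 10-month mice for 0 of 16020 genes against aged mice (0%; 1182 at an unadjusted p under 0.05; DESeq2 0) and 0 of 14524 against PS19 mice (0%; 306 unadjusted; DESeq2 0), by the interaction term in edgeR. These experiments were sequenced and handled separately, so each interaction compares differences within an experiment, not levels.

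The difference for Acss2 was 0.13 ± 0.087 on the log2 scale (SE) higher in 10-month than in aged mice (adjusted p 0.793, edgeR) and -3.20 ± 0.72 (SE) against PS19 mice (adjusted p 1, edgeR). In the PS19 mice Acss2 was at 611.5 ± 620.6 CPM with upACSS2 (SD, n = 5; 58.3 to 1406) and at 49.9 to 64.4 CPM with vector, so the lowest upACSS2 mouse lay inside the vector range. Galnt6 had log2 fold changes of 0.93 in 10-month and -0.097 in aged mice, a difference of 1.03 ± 0.21 (SE; adjusted p 0.186, edgeR), and 0.027 in PS19 mice. Ppp1r16b had 0.058 in aged and 0.12 in PS19 mice, and Srp19 -0.077 and -0.12.

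The activity regulators had a median of 0.29 in 10-month mice and 0.028 in aged mice in the joint fit, with 24 and 17 of 26 higher. In the joint fit with PS19 mice the medians were 0.28 and -0.010, with 23 and 12 of 26 higher, and no member's difference passed the threshold in either. Egr4 had 0.54 against 0.015 in aged mice (difference 0.53 ± 0.27, SE) and Fosb 0.45 against -0.27 in PS19 mice (difference 0.72 ± 0.24, SE; adjusted p 1, edgeR). Arc had 0.40 in 10-month and -0.092 in aged mice (difference 0.49 ± 0.29, SE). Ribosomal genes were lower for 22 of 22 in 10-month and in aged mice (medians -0.14 and -0.072).

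**Figure D5:**
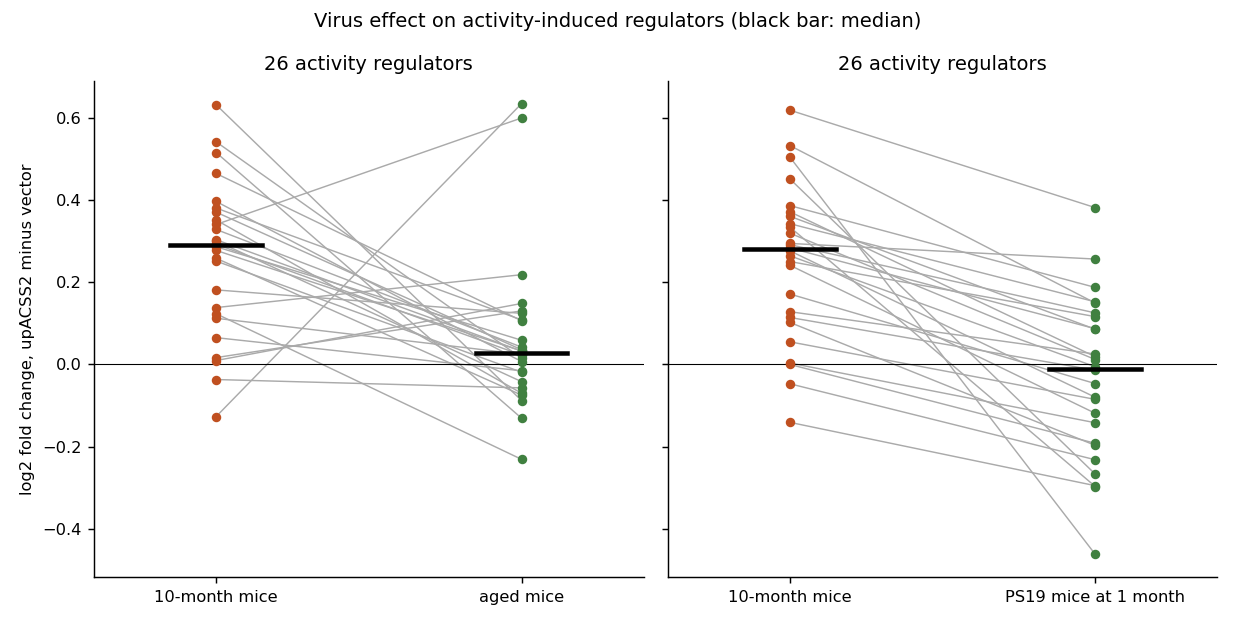
Log2 fold change (y axis, upACSS2 minus vector) of 26 activity regulators in 10-month mice (orange) and in aged mice or PS19 mice at 1 month (green), each gene joined by a line, with medians as black bars. The medians are 0.29 and 0.028 (left) and 0.28 and -0.010 (right), and no gene's difference passed the threshold.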

How the data were processed

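RNA was extracted with Trizol and RNeasy columns and made into libraries with an NEB kit, per the labels' protocols. The authors deposited counts of reads per gene symbol. The submitters' processing notes name STAR, featureCounts, HTSeq, DESeq2 and mm10, without versions or roles, and the strand setting is not given in the sources used here, so reads of overlapping genes may be shared. All 11 columns of the 10-month table were used, with 0 left over. The test was that of edgeR 4.0.16 under R 4.3.3 (TMM scaling, default filter by group, quasi-likelihood F test, two-sided, Benjamini-Hochberg adjustment over all genes tested, threshold 0.05). CPM are relative to the TMM-scaled library size. Interactions were fitted on the counts of both experiments together. Steps were tested on simulated data. DESeq2 1.42.0, limma 3.58.1 (voom), RLE factors, no filter, a block by number and each mouse left out were tried as alternatives; covariates and other subsets were chosen after seeing the data. All 25 library pairs of the same group differed by more than sampling noise (chi-square per gene at least 3.17).

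Named genes were Acss2, fixed activity, sterol and cell type genes, genes past a threshold in edgeR or DESeq2, the 10 genes at each end of the fold change among those with p under 0.01, mean log2 CPM of at least 1 and no overlap, and the 3 lowest p of each list; some genes that met this rule are not reported here. Members and lists were chosen with earlier results of these data known. Exon lengths and positions came from GENCODE annotation of GRCm38 (98.8% of genes matched), and promoters from RefSeq.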

Additional observations from a re-analysis of the deposited data

Results flagged for a closer look

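In each group of 5 or 6 mice, a value was looked at again when its gap to the nearest mouse was large for the range of the group (Dixon's 95% limit, 0.71 for 5 and 0.625 for 6 mice). Of 226 such checks 24 met the limit, where chance flags about 1 in 20, and some genes and lists share mice. Vector mouse 5 stood above its group in Arc (476.1 CPM, against 171.3 to 257.7), Egr1 (360.8, against 120.1 to 188.6), Nr4a1 (202.1, against 78.1 to 113.8) and the microglial Tmem119 (32.4, against 25.3 to 26.4), and below it in the CA2 and CA3 list (3.62 log2 CPM, against 4.59 to 4.92).

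Vector mouse 2 stood above its group in Tcf7l2 (83.4 CPM, against 3.31 to 11.1), Tnnt1, another thalamic marker (15.6, against 1.54 to 4.25), Galnt6 (8.61, against 6.56 to 6.75), Kazald1 (4.45, against 2.31 to 2.89) and Insig1 (74.98, against 56.9 to 61.3). The same mouse was also high in the lists of fatty acid genes (6.48 log2 CPM) and astrocyte markers (8.44). Vector mouse 1 was high in Pcdhgb7 (7.05 CPM) and low in Csf1r (80.7) and Sall1 (16.8), and vector mouse 4 was low in Klhl11 (29.1).

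Among upACSS2 mice, mouse 2 was low in Srp19 (22.1 CPM), Zfp941 (6.99) and mitochondrial RNAs (7.20 log2 CPM, against 7.95 to 8.29) and high in Fosb (25.8 CPM, against 16.2 to 19.8). Mouse 5 was high in Dusp6 (124.3 CPM, against 85.0 to 97.3) and in the effector list (5.33 log2 CPM). Mouse 1 stood apart in the choroid plexus list (7.47 log2 CPM, against 2.64 to 3.39) and mouse 3 was low in the respiratory chain list (6.74, against 7.02 to 7.10). What sets these single mice apart was not tested.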

How the results depend on the processing

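The count of 0 genes past the threshold in edgeR was the same with RLE size factors, without the filter, with limma-voom, with the replicate block, without each of the 11 mice in turn and under the 4 settings added after seeing the data; DESeq2 gave 3. Whether mice of the same number were handled together cannot be settled from 5 numbers. Correlations of same-numbered deviations ran from -0.158 to 0.455, and 2 of the 5 vector mice correlated best with their own number. The highest correlation was that of number 1, whose 2 mice shared the high Ttr level. With the replicate block the unadjusted count went from 1204 to 1226, and for Acss2 the difference within the 5 shared numbers was 10.9 CPM (exact permutation p 0.0625, the smallest that 5 pairs allow). Leaving out mice gave Acss2 differences of 10.1 to 12.3 CPM, counts of 0 to 1 for the interaction with aged mice (C2cd3 without upACSS2 mouse 4 and Zyx without vector mouse 5, both named after their values were seen) and 0 for that with PS19 mice.

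Signs of 3 fold changes turned, those of Npas4, Bdnf and Egr1 (0.053, 0.022 and 0.29 on the log2 scale with all mice). Over the fits without 1 mouse Npas4 ran from -0.0705 to 0.12 on the log2 scale, below 0 without upACSS2 mouse 5, vector mouse 2 (-0.0299) or vector mouse 4 (-0.0217), and was -0.0165 with the thalamic covariate. Bdnf ran from -0.0797 to 0.0843 over those fits, with -0.0528 without upACSS2 mouse 2, -0.00433 without upACSS2 mouse 5 and the lowest without vector mouse 2, and was -0.0982 without vector mice 2 and 5, -0.131 with the thalamic and -0.126 with the length covariate. Egr1 became -0.111 with the length covariate. Within upACSS2 mice r became 0.557 for Fos and 0.744 for Arc without mice 2 and 4. The choroid median was -2.07 without upACSS2 mouse 1 and 2.74 with the length covariate. The cause of these changes was not tested. Depth limits genes of a few CPM.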
